A study of Homo sapiens with 4 samples.

Results

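The 2157 asynchronous and 113 mitotic GATA2 peaks described here lay away from promoters and held both a binding string of RUNX factors and one of GATA factors. They were chosen from all 31777 GATA2 peaks called in asynchronous K562 cells and all 1648 called in mitotic K562 cells, so that they made up 6.79% and 6.86% of the lists. A peak was taken when its midpoint lay 1 to 100 kb from the nearest transcription start site (TSS) of a protein-coding gene and its hg38 sequence held both AACCACA, the core of the RUNX motif (the RUNX string), and the tetramer GATA with A or T before it and A or G behind it (the GATA string), each on either strand. Peaks with further binding patterns were then dropped, namely the AP-1 site TGACTCA or TGAGTCA, the GATA and E-box composite in which CTG is followed by GATAA after 8 or 9 bases, and runs of 4 or more GATA units. They are called RUNX-GATA peaks below.

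The study asked which sites GATA2 keeps through cell division, and measured its occupancy by ChIP-seq, in which DNA fixed to a protein is pulled down with an antibody and sequenced. K562 is an established human leukaemia cell line with erythroid and megakaryocytic features that expresses its own GATA2. Asynchronous cells, most of them in interphase, gave 1 GATA2 library. Nocodazole-arrested cells were fixed, then sorted in several rounds by staining for the mitotic epitope MPM-2, and pooled. They gave the other library, in which a small part of the cells was still asynchronous according to the study. Both kinds of cells were fixed first with disuccinimidyl glutarate and then with formaldehyde, and with 1 library per condition no difference between the conditions has a replicate check.

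RUNX factors bind DNA through their runt domain together with the partner protein CBFB. RUNX1 is needed for blood stem cells to arise from haemogenic endothelium, and it shares many enhancers with GATA2, TAL1, LMO2, ERG and FLI1 in blood progenitors. A match to a string is a feature of the sequence only, and RUNX binding was not measured in these libraries.

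The windows below come from peaks that were found in both conditions, and they show how the 2 strings were placed. The first 4 belong to listed blood genes, and the next 5 show close or central pairs among the peaks named by rule. All are given 5′ to 3′ on the plus strand of hg38, with every match to the RUNX string (AACCACA, or TGTGGTT where it is on the minus strand) and to the GATA string in capitals, so that overlapping matches run on in 1 stretch and a match at the end of a window can be cut short.
ADGRG1, chr16:57601911-57601987: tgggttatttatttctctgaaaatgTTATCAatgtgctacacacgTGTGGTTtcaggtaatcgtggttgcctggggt
CD34, chr1:207873488-207873626: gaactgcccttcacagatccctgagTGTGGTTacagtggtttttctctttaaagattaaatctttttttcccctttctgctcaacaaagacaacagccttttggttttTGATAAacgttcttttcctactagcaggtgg
GFI1, chr1:92544820-92544896: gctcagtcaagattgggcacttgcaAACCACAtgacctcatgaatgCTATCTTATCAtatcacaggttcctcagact
ZBTB16, chr11:114216003-114216068: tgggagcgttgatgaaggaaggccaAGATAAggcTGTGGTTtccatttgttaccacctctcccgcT
SLC40A1, chr2:189608961-189609026: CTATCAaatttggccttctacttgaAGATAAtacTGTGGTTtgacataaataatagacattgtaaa
TCF4, chr18:55748581-55748648: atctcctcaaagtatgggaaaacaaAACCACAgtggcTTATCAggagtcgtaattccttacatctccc
KIF2A, chr5:62261633-62261701: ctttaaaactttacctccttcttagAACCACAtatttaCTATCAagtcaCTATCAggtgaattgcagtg
SPTAN1, chr9:128558520-128558601: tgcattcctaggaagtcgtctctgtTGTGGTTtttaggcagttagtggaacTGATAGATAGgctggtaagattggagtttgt
ZNF77, chr19:2950146-2950208: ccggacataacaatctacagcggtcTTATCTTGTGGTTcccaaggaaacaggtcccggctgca

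The selection worked in the same way on both lists. Of the asynchronous peaks, 24408 (76.8%) were distal, 22844 of these held the GATA string, and 3179 of these held the RUNX string as well. The drops then took out 1022 peaks (32.1%), of which 649 held the composite, 449 the AP-1 site and 9 a run of GATA units, with some in more than 1 class. In the mitotic list 1257 peaks were distal, 1222 of these held the GATA string, 168 held both strings, and 55 were dropped. The peaks that passed every step except the RUNX string, 13131 asynchronous and 598 mitotic, are called other distal GATA peaks and serve as the comparison.

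RUNX-GATA peaks were found in mitosis more often than other distal GATA peaks. The difference was smaller at equal widths, and the share was near that of all distal peaks with the GATA string. An asynchronous peak is called bookmarked when it shares at least 1 base with a mitotic peak. There were 130 bookmarked RUNX-GATA peaks among 2157, or 6.03% (95% exact binomial interval 5.06% to 7.12%, which like all intervals here covers counting error over peaks only), beside 5.04% of all asynchronous peaks. All 22844 distal peaks with the GATA string, before the drops and with the RUNX-GATA peaks among them, had a share of 5.33% (5.04% to 5.63%). That share lies inside the interval of the RUNX-GATA peaks. Of the other distal GATA peaks 470 of 13131 were bookmarked, or 3.58% (3.27% to 3.91%). The difference was 2.45 percentage points, with a Newcombe interval of 1.46 to 3.57. When a reciprocal overlap of 50% was asked for, the share of RUNX-GATA peaks was 2.36% and the difference 0.917 points (0.315 to 1.67). With the strings sought only in the central 200 bp of each peak it was 0.241 points, and the interval of -0.810 to 1.51 held 0. Distal peaks with the GATA and E-box composite had a share of 8.98% (8.14% to 9.88%) and those with the AP-1 site a share of 6.77% (5.79% to 7.86%), so the RUNX-GATA peaks stood below the composite peaks.

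Bookmarked peaks were wider on the whole, with ranges that overlapped those of the rest. The 130 bookmarked RUNX-GATA peaks had a median width of 650.5 bp (lowest 309 bp, highest 2009 bp), and the 2027 found only in asynchronous cells had a median of 407 bp (116 to 1707 bp). RUNX-GATA peaks as a whole were also wider than other distal GATA peaks, with medians of 418 and 359 bp. A wider interval has more room for a string, and the share of peaks with the RUNX string went up with width, from 9.14% in the narrowest quartile of all these peaks over 12.3% and 15.7% to 19.3% in the widest.

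Within quartiles of width the 2 kinds of peaks were close. In the narrowest quartile (94 to 261 bp) 0 of 351 RUNX-GATA peaks were bookmarked, which allows a share of up to 0.855% taken as 3 counts (exact upper limit 1.05%), beside 5 of 3488 other peaks. The next quartiles had 4 of 469 (0.853%) beside 0.449%, and 16 of 601 (2.66%) beside 2.11%. The widest quartile (498 to 2026 bp) held 110 of the 130 bookmarked RUNX-GATA peaks, a share of 14.9% (12.4% to 17.7%), beside 12.4% (11.3% to 13.6%) of other peaks. That difference of 2.55 points had an interval of -0.135 to 5.52, which holds 0. When the other peaks were weighted to the widths of the RUNX-GATA peaks in 20 bins, a step added after the data were seen, their share was 5.30% and the difference 0.724 points.

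More strings in a peak went with a larger bookmarked share. With 1 RUNX match 110 of 1939 peaks were bookmarked (5.67%), with 2 matches 18 of 202 (8.91%, 5.37% to 13.7%), and with 3 or more 2 of 16. These groups also differed in median width, which was 415, 453.5 and 522.5 bp. By number of GATA matches, the bookmarked share of RUNX-GATA peaks was 3.66% with 1, 4.47% with 2, 6.44% with 3, 11.4% with 4 or 5 and 14.5% with 6 or more. The other distal GATA peaks with the same numbers of GATA matches had shares of 1.34%, 2.54%, 3.68%, 8.31% and 14.1%. The RUNX-GATA peaks were the higher of the pair at each number, by the least where there were most GATA matches, and they were the wider of the pair at each number too, with medians of 337 against 285 bp at 1 match and 768 against 643.5 bp at 6 or more.

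The number of GATA matches itself hardly differed between the 2 kinds of peaks. RUNX-GATA peaks held 2.45 ± 1.50 GATA matches (SD over 2157 peaks) and other distal GATA peaks 2.43 ± 1.89 (SD over 13131 peaks). At least 2 matches were present in 70.8% and 69.8% of peaks. Since the RUNX-GATA peaks were wider, they held fewer per length, 5.40 GATA matches per kb against 6.16. Bookmarked RUNX-GATA peaks held 3.19 GATA matches on average but 4.56 per kb, and asynchronous-only ones 2.40 and 5.48 per kb.

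The RUNX string was more common in GATA2 peaks than next to them, and it lay close to the peak centre. As a comparison from the same neighbourhoods, sequences of each peak's own width were taken 5 kb to each side, and the same rule was applied to them. Of 13036 flanking sequences with a GATA string that passed the drops, 1029 (7.89%, 7.44% to 8.37%) held the RUNX string, against 14.1% (13.6% to 14.7%) of distal GATA peaks that passed them. The difference was 6.22 points (5.49 to 6.93). Median GC content was 42.9% in RUNX-GATA peaks and 39.6% in flanking sequences with both strings. The part of base composition in this difference was not tested. The median RUNX match lay 71.5 bp from the peak midpoint, and 64.9% (63.0% to 66.8%) lay within 100 bp of it. If matches had been spread evenly over each peak, 52.1% would have lain there, so the observed share was 1.25 times the even one. For GATA matches in the same peaks the share was 62.5% against 46.8%, or 1.33 times. In the flanking sequences it was 1.05 times for RUNX matches.

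Over all RUNX-GATA peaks both strings thinned out away from the midpoint. RUNX matches fell from 4.31 per kb of sequence in the innermost 25 bp on each side of the midpoint to 1.35 per kb at 175 to 200 bp, and GATA matches from 9.60 to 3.47 per kb. In bookmarked peaks the RUNX matches were densest at 50 to 75 bp from the midpoint, with 4.00 per kb, and stood at 2.15 per kb in the innermost 25 bp, from 26 and 14 matches. The GATA matches of the same peaks were densest in the innermost 25 bp, with 10.9 per kb, and stood at 7.08 per kb at 50 to 75 bp. Over whole bookmarked peaks the share within 100 bp was 1.64 times the even one for RUNX and 1.70 times for GATA matches, and these ratios have more room to rise in wider peaks.

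RUNX and GATA strings lay nearer to each other inside peaks than in flanking sequences. The gap is the number of bases between the closest RUNX and GATA matches that do not overlap. It was at most 30 bp in 919 of 2157 RUNX-GATA peaks, 42.6% (40.5% to 44.7%), and at most 100 bp in 80.6%, with a median of 38 bp. In the 1029 flanking sequences with both strings it was at most 30 bp in 23.5% (21.0% to 26.2%) and at most 100 bp in 55.4%, with a median of 83 bp. The difference in the share at 30 bp or less was 19.1 points (15.7 to 22.3). The flanking sequences were wider (median 467 bp) and held fewer GATA matches, 1.69 on average, and both can move the gap. The part of width in the difference was not tested. Among sequences with 1 match of each string, the share was 29.3% (25.5% to 33.3%) of 547 peaks against 17.4% (14.3% to 20.8%) of 541 flanking sequences, a difference of 11.9 points (6.87 to 16.8), with median widths of 330 and 419 bp.

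The share of close pairs was not higher among the bookmarked peaks. A gap of at most 30 bp was present in 47 of 130 bookmarked peaks, 36.2% (27.9% to 45.0%), and in 43.0% (40.9% to 45.2%) of asynchronous-only peaks. Among peaks with a closest pair 0 to 30 bp apart and no overlapping pair, 5.22% were bookmarked, followed by 6.43% at 31 to 100 bp, 7.52% at 101 to 200 bp and 6.59% beyond, and the median width over these groups ran from 398 to 578 bp. In the 113 mitotic RUNX-GATA peaks, which are narrower, the gap was at most 30 bp in 43.4% (34.1% to 53.0%).

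No single arrangement of the 2 strings accounted for many peaks. The most frequent was an overlap on the same strand in which the last 2 bases of the GATA string were the first 2 of AACCACA, in 36 RUNX-GATA peaks (1.67%) and 11 flanking sequences (1.07%). Next came a gap of 3 bp with the GATA string 3′ of AACCACA on the opposite strand, in 26 peaks (1.21%) and 24 flanking sequences (2.33%). Bookmarked peaks near ZBTB16 and SLC40A1 had this arrangement, which was not more frequent in peaks than beside them. The same orientation with a gap of 5 bp was present in 23 peaks (1.07%) and in 1 flanking sequence (0.0972%), and the bookmarked peak near TCF4 was among them. These arrangements were picked from the counts after they were seen, so they are a description without a test. Over gaps of 0 to 30 bp the 4 combinations of strand and side had 244 to 313 pairs in the peaks and 45 to 86 in the flanking sequences. The GATA string 3′ of AACCACA on the same strand had the most pairs in peaks, 313, and the fewest in flanking sequences, 45. On the opposite strand 3′ of AACCACA it had the fewest in peaks, 244, and the most in flanking sequences, 86. These counts were not tested.

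In mitosis most of the RUNX strings stayed inside the narrower interval. The mitotic peaks over the 130 bookmarked RUNX-GATA peaks covered a median of 45.0% of the asynchronous interval, and 98 of them (75.4%, 67.1% to 82.5%) still held the RUNX string. Of 153 RUNX matches in the bookmarked peaks 110 (71.9%) lay in the mitotic interval, and of 419 GATA matches 297 (70.9%), a difference of 1.01 points (-7.64 to 8.95). That interval takes the matches as independent, although both strings lie in the same 130 peaks, so no conclusion is drawn from it. Each of the 113 mitotic RUNX-GATA peaks lay on an asynchronous peak, 97 of them on a RUNX-GATA peak and 16 on a peak dropped for an AP-1 site, composite or GATA run in its wider interval. Their median width was 315 bp, against 282 bp for the 598 other mitotic distal GATA peaks. The RUNX string was held by 15.9% (13.3% to 18.8%) of mitotic and 14.1% of asynchronous distal GATA peaks, a difference of 1.78 points. The 2 lists share sites, so they are not independent and no interval is given for it. The asynchronous peaks were also wider, with medians of 418 bp with and 359 bp without the RUNX string.

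At genes of the blood and its vessels, 6 RUNX-GATA peaks were bookmarked, and they lay near GFI1, ZBTB16, SLC25A37, ADGRG1, CD34 and ANGPT2. Blood transcription factors had 2 of 18 RUNX-GATA peaks bookmarked, erythroid genes 1 of 6, and stem cell and endothelial genes 3 of 8. Other listed genes had 0 of 5, 0 of 6 and 0 of 13, beside 6.03% of all RUNX-GATA peaks. Peaks were assigned by distance alone, to whichever protein-coding gene had a transcript starting closest by, and this need not be the gene a peak acts on. GFI1 encodes a zinc finger repressor of blood stem cells and myeloid cells. Its bookmarked peak (chr1:92544696-92545306, 611 bp in asynchronous cells, 315 bp in mitotic cells) lay 58076 bp upstream of the nearest GFI1 TSS, in an intron of a protein-coding gene and outside the canonical GFI1 transcript. It held 2 RUNX and 3 GATA matches with a gap of 14 bp. A second GFI1 peak, 20450 bp downstream, had no mitotic counterpart.

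ZBTB16 encodes the repressor PLZF, and its bookmarked peak was the widest of all RUNX-GATA peaks at 2009 bp (chr11:114215430-114217438, intron 4 of the canonical transcript). It held 11 GATA matches and 1 RUNX match. The mitotic peak, 494 bp wide, covered the middle of it and left out the RUNX string with its GATA neighbour 3 bp away. A second ZBTB16 peak (chr11:114082740-114083214, 475 bp, intron 2) had no mitotic counterpart. CD34, the surface sialomucin that marks blood stem cells and endothelium, had a peak 17077 bp downstream of its nearest TSS and outside the gene (chr1:207872880-207873950), 1071 bp wide in asynchronous and 339 bp in mitotic cells. Its RUNX string lay in the mitotic interval, 76 bp from the closest GATA match.

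ADGRG1 encodes an adhesion receptor of blood stem cells, and its peak differed from the others in that the mitotic interval was the wider one. It was 361 bp in asynchronous cells (chr16:57601836-57602196, intergenic) and 470 bp in mitotic cells, with 1 RUNX match, 2 GATA matches and a gap of 14 bp. The ANGPT2 peak (chr8:6570302-6570799), near the gene of a ligand of the endothelial receptor TIE2, was 498 bp wide in asynchronous and 169 bp in mitotic cells, with a gap of 36 bp. At SLC25A37, which encodes the mitochondrial iron importer mitoferrin-1, the peak (chr8:23493995-23494626) measured 632 bp in asynchronous and 407 bp in mitotic cells and its gap was 138 bp. A RUNX string lay inside the mitotic interval in 5 of the 6 peaks, and ZBTB16 had none there. At GFI1 this held for 1 of the 2 RUNX strings, and the other ran past the end of the mitotic interval.

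Across 6 lists of genes, RUNX-GATA peaks were spread widely, and the bookmarked share of each list rested on 5 to 18 peaks. Over all protein-coding genes, 1771 of the 6885 genes with a distal GATA peak in the comparison (25.7%) had a RUNX-GATA peak, and 129 of these had a bookmarked one. Among blood transcription factors 12 of 33 genes had a RUNX-GATA peak. They were TAL1, ELF1, TCF12, ZFPM1, MEIS1, BACH1, RUNX1, ERG, IKZF1 and GFI1B, with GFI1 and ZBTB16, and 2 of their 18 peaks were bookmarked. In the stem cell and endothelial list 7 of 15 genes had one, and 3 of the 8 peaks were bookmarked (37.5%, with an interval of 8.52% to 75.5%). The erythroid list had 6 of 25 genes and 1 bookmarked peak of 6. The remaining lists had 0 bookmarked peaks, out of 5 at 3 of 20 megakaryocyte and platelet genes, 6 at 5 of 14 myeloid and lymphoid genes, and 13 at 10 of 32 signalling, survival and cell cycle genes. Over all genes 6.03% of RUNX-GATA peaks were bookmarked. The stem cell and endothelial list rests on 8 peaks, and peak widths were not matched between lists. The 6 lists were chosen with earlier results of these data known and compared without a test, so no list is set apart by its share.

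RUNX1, which encodes a factor that binds the RUNX string, was nearest to 37 asynchronous GATA2 peaks, of which 2 were bookmarked, and 1 of the 37 was a RUNX-GATA peak. That peak was narrow and had no mitotic counterpart. It lay in intron 2 of the canonical transcript (chr21:35026171-35026421, 251 bp) and held 1 RUNX and 3 GATA matches with a gap of 26 bp. The TAL1 peak (chr1:47238850-47239659, 810 bp), near the gene of the bHLH partner of GATA factors in blood, had a gap of 17 bp and no mitotic counterpart. GFI1B, an erythroid and megakaryocytic repressor, had a peak of 922 bp in intron 1 (chr9:132984182-132985103) with 2 RUNX matches that was also asynchronous only, while 1 of the 8 asynchronous GATA2 peaks nearest to this gene was bookmarked. These 3 genes were named after their values were seen.

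Among the 10 bookmarked RUNX-GATA peaks with the widest mitotic interval, none lay at a listed gene. The widest, 808 bp, was near SH3GLB1, which encodes the membrane-bending protein endophilin B1 (chr1:86788493-86789262). TCF4, an E protein that pairs with other bHLH factors, followed with 720 bp (chr18:55747936-55749066), and PLEKHH2 with 714 bp (chr2:43724949-43725727). At SH3GLB1 the mitotic peak was wider than the asynchronous peak of 770 bp and began outside it. Those near FAM117A, SPTAN1, KIAA0513, FBXO38, SEMA6A and HNMT had mitotic widths from 541 to 579 bp. Among the peaks named here, those near FAM117A and KIAA0513 had their RUNX strings outside the mitotic interval, the closest of them 318.5 and 403.5 bp from the midpoint of the asynchronous peak.

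Of the 47 bookmarked peaks with a gap of at most 30 bp, the widest 10 included those near ZBTB16, TCF4 and FBXO38. Further ones lay near CHST11, a chondroitin sulfotransferase gene, MRPS25, a gene of the mitochondrial ribosome, SLC40A1, the gene of the iron exporter ferroportin, KIF2A, a spindle kinesin gene, TBC1D7, the gene of a subunit of the TSC complex, and ZNF77. The SLC40A1 peak (chr2:189608487-189609526) narrowed from 1040 to 183 bp in mitosis, and its RUNX string, 8.5 bp from the midpoint, stayed inside with the GATA string 3 bp away. At KIF2A (chr5:62261171-62262158) the width went from 988 to 306 bp with the RUNX string 3.5 bp from the midpoint, and at ZNF77 (chr19:2949672-2950572), where the 2 strings abut with a gap of 0 bp, from 901 to 306 bp. At these 3 peaks the printed pair lay inside the mitotic interval.

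The 13 genes with 4 or more RUNX-GATA peaks held 59 of them, of which 3 were bookmarked, while 6.03% of all RUNX-GATA peaks were, and these counts do not set the genes apart. NAV2, a neuron navigator gene, had 6 of its 13 distal GATA peaks in the set and 0 bookmarked. ANKRD55 and MTSS1 had 5 each, 1 of them bookmarked, and NBAS, SGMS1 and TSPAN5 had 5 each and 0 bookmarked. PTH2R had 4 with 1 bookmarked, and JARID2, a partner of the Polycomb repressive complex, LPIN1, MCF2L2, RERE, TMEM164 and ZFPM2 had 4 each with 0. Most genes (1473 of 1771) had 1 RUNX-GATA peak. WDR70 was the only gene with 2 bookmarked RUNX-GATA peaks, and these were its 2 RUNX-GATA peaks.

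Of further strings in the same peaks, the ETS string AGGAAGT went with a higher bookmarked share over all widths and also in the widest quartile. ETS factors such as ERG and FLI1 share enhancers with RUNX1 in blood cells. The ETS string was present in 14.6% (13.1% to 16.2%) of RUNX-GATA peaks and 15.3% (14.7% to 15.9%) of other distal GATA peaks, a difference of -0.681 points (-2.24 to 0.986) that came to -2.08 points at equal widths. Of the 315 RUNX-GATA peaks with an ETS string 36 were bookmarked, 11.4% (8.13% to 15.5%), and of the 1842 without it 94, or 5.10% (4.14% to 6.21%). The difference of 6.33 points had an interval of 3.07 to 10.4. The peaks with the ETS string were wider, with a median of 476 against 409 bp. In the widest quartile, where the medians were 632 and 629 bp, the shares were 21.2% of 146 and 13.4% of 590, a difference of 7.84 points (1.27 to 15.6). In other distal GATA peaks the shares over all widths were 5.08% with and 3.31% without the ETS string, a difference of 1.77 points (0.829 to 2.87). In their widest quartile the ETS difference was 1.44 points (-1.35 to 4.58), and whether the ETS difference is larger in RUNX-GATA peaks was not tested.

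The other 8 strings were searched on both strands, the E-box CAGCTG, the CACC box CCACCC, the GC box GGGCGG, the MYB string AACGG, the CCAAT box (these letters), the SMAD string CAGACA, the STAT string TTCNNNGAA and the TEAD string GGAATG. Over all widths the bookmarked share was higher with than without each of the 9 strings, and the interval held 0 for MYB. In the widest quartile of RUNX-GATA peaks the interval held 0 for each string except ETS, with differences between -0.630 for STAT and 8.34 points for the GC box. With 9 strings compared and no adjustment, 1 interval that leaves out 0 is weak ground for singling one out. Other distal GATA peaks had a different pattern in their widest quartile. There the intervals left out 0 for the E-box (5.02 points, 2.48 to 7.70) and MYB (5.04 points, 2.01 to 8.42). They also did so for the CACC box (3.13 points, 0.704 to 5.68) and CCAAT (3.18 points, 0.840 to 5.47). For ETS, the GC box, SMAD, STAT and TEAD they held 0.

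Against other distal GATA peaks, RUNX-GATA peaks more often held CCAAT, 45.9% against 39.1%, the TEAD string, 27.4% against 22.9%, and the E-box, 25.9% against 22.5%. At equal widths these differences came down from 6.82, 4.51 and 3.37 points to 2.85, 1.50 and 0.945 points. The SMAD string went from 3.25 to -0.173 points, the MYB string from 1.50 to -0.229, the CACC box from 1.07 to -1.81 and the STAT string from 2.66 to 0.511, so that 3 of these 4 changed sign at equal widths. The GC box went the other way, 5.80% against 7.65%, and its difference grew from -1.85 to -2.85 points at equal widths. The base composition moved with it, since the median GC content was 42.9% in RUNX-GATA peaks and 43.9% in other distal GATA peaks, with 9.66 and 10.8 CpG per kb. Their part in the string counts was not tested. Higher shares in peaks than in flanking sequences were not limited to the RUNX string. The ETS string was in 14.6% of RUNX-GATA peaks and 9.33% of flanking sequences with both strings. The E-box was in 25.9% and 16.6%, while CCAAT went the other way, with 45.9% and 51.7%.

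RUNX-GATA peaks lay in the same kinds of places as other distal GATA peaks. By the GENCODE annotation at the midpoint, 59.4% (57.3% to 61.5%) lay in introns of protein-coding genes, 37.4% between genes and 3.25% in exons. The share in introns was 57.6% for other distal GATA peaks, and the difference of 1.78 points had an interval of -0.475 to 4.00. The median distance to the nearest TSS was 14292 bp against 13118 bp, and 48.4% lay upstream of it against 48.3%. In introns 80 of 1281 RUNX-GATA peaks were bookmarked (6.25%) and between genes 48 of 806 (5.96%), so these 2 locations had similar shares. In exons it was 2 of 70, or 2.86% (0.348% to 9.94%).

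The bookmarked share was lowest near promoters. It was 9 of 274 (3.28%, 1.51% to 6.14%) at 1 to 3 kb from the TSS, 40 of 584 (6.85%) at 3 to 10 kb, 45 of 735 (6.12%) at 10 to 30 kb and 36 of 564 (6.38%) at 30 to 100 kb. The interval of the nearest class overlaps those of the others. In other distal GATA peaks the shares were 2.23%, 3.22%, 3.67% and 4.59% over the same classes. At the edges of the rule, 3 of 88 peaks 1000 to 1500 bp from a TSS and 4 of 85 otherwise eligible peaks at 500 to 1000 bp were bookmarked, as were 8 of 68 at 80 to 100 kb and 3 of 51 at 100 to 120 kb.

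By chromosome the bookmarked share of RUNX-GATA peaks was uneven around the 6.03% over all chromosomes. The intervals of chromosomes 10 and 14 lay below that share and those of the others held it, without adjustment for the number of chromosomes. Chromosome 5 had 11 of 104 (10.6%, 5.40% to 18.1%), chromosome 2 had 16 of 193 (8.29%), and chromosome 10 had 2 of 119 (1.68%, 0.204% to 5.94%). Chromosome 14 had 0 of 66, which allows a share of up to 4.55% taken as 3 counts (exact upper limit 5.44%). Chromosome 22 had 0 of 36, which allows up to 8.33% in the same way (exact upper limit 9.74%). The share of distal GATA peaks with the RUNX string differed less, from 10.2% on chromosome 19 to 17.0% on chromosome 10.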

How the data were processed

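The authors aligned reads to hg38 with BWA 0.7.12, kept unique reads and called peaks with MACS2 2.1.0 and Genrich 0.6.1, per the submitters' processing notes and the methods, and removed ENCODE blacklist regions. Thresholds, the use of the inputs and the combination of calls are not given in the sources used here. The deposited lists hold peak positions in bp only, without a score or count, so depth is unknown and the inputs were not analysed. Positions were read as BED and printed from base 1. Sequences came from GRCh38 and genes from GENCODE release 44. Intervals and figures were made in Python 3.11.15 (pysam 0.24.0, scipy 1.17.1, matplotlib 3.10.9, numpy 2.4.6) with steps that had been tested on simulated sequences. No test between conditions was made.

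Genes were named by rule: those nearest to bookmarked RUNX-GATA peaks in 6 gene lists, to the 10 with the widest mitotic peak, to the 10 widest with a gap of at most 30 bp, and the 10 genes with most RUNX-GATA peaks, extended to all 13 with 4 or more because 7 were tied at 4. Of the genes this rule gives, 1 is not reported here. The peaks, lists and strings were chosen with earlier results of these data known. In the numbers of GATA matches per peak, and per kb of whole peaks, overlapping matches on one strand were not counted apart. Positions, gaps and the matches followed into the mitotic interval included overlapping ones.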

Additional observations from a re-analysis of the deposited data

How the results depend on the processing

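Of 72 recomputed values, 56 stayed within their counting interval or, for numbers of peaks, within 1.5 times the reported one, and 0 differences changed sign. With a reciprocal overlap of 50%, 2.36% of RUNX-GATA peaks were bookmarked and the difference from other distal GATA peaks was 0.917 points. Without asynchronous peaks narrower than the list's median, there were 1296 RUNX-GATA peaks, with 9.65% bookmarked, 39.9% with a gap of at most 30 bp and 51.3% of RUNX matches within 100 bp of the midpoint. The difference from other distal GATA peaks was then 2.19 points (0.545 to 4.03). In the central 200 bp alone there were 1450 asynchronous RUNX-GATA peaks, 4.83% were bookmarked, the difference was 0.241 points (interval -0.810 to 1.51, which holds 0) and 51.0% had a gap of at most 30 bp. With the dropped peaks kept there were 3179 asynchronous and 168 mitotic ones, 7.99% were bookmarked, 60.5% of RUNX matches lay within 100 bp and 66.9% of the mitotic intervals held the RUNX string. The intron share was 55.3% with start sites of every gene type and 57.0% from 3 kb. Of the steps added after the data were seen, counting overlapping strings as a pair gave 44.8% and weighting by width a difference of 0.724 points. The cause of these shifts was not tested. No paired analysis was possible because each condition has 1 library.

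The depth of both libraries is unknown from positions, so a site without a mitotic peak cannot be told apart from one under the limit of detection. Nor do positions tell mitotic binding from signal of the asynchronous cells left in the mitotic sample. The part of these cells was not tested. Consensus strings miss weaker sites, and repeats are not marked in the reference used here. Neighbouring peaks can share a gene, and intervals over peaks say nothing of the spread between cultures.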
